A study of Mus musculus with 36 samples.

Results

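Lipoprotein lipase (Lpl) and 6 genes of fatty acid uptake and lipid storage (Plin2, Plin3, Fabp5, Fabp3, Cd36 and Pnpla2) were followed across single microglia of an amyloid mouse model. These 7 genes were matched by symbol among the 26348 genes in the files, and all 7 passed the filter on low counts that left 14892 genes for testing. The sorted cells were microglia, which are brain-resident macrophages, and came from male mice aged 6 months. Transgenic mice carried APPswe/PSEN1dE9 (APP/PS1, called APP mice here), a pair of mutant human transgenes that leads to amyloid deposits, and wild-type (WT) mice served as controls. The sources used here do not give the promoter that drives the transgenes. The cells were CD11b-high and CD45-intermediate, and were split by CD11c, the integrin encoded by Itgax, into 6 groups. WT cortex and WT hippocampus gave CD11c-negative cells, and APP cortex and APP hippocampus gave both CD11c-negative and CD11c-positive ones. WT mice gave no CD11c-positive group, so gate and genotype are joined wherever CD11c-positive APP cells are set against WT cells. A replicate is the sum of the cells of 1 animal name, region and gate. Each group had 4 replicates except CD11c-positive APP hippocampus, whose 3 replicates are named 1-2, 2-3 and 4 in the titles. Names 1-2 and 2-3 may mark pools that share an animal, and the SDs and p-values of that group, which treat its 3 replicates as independent, would then be too small.

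Lpl is a secreted enzyme that releases fatty acids from the triglycerides of lipoprotein particles. Cd36 takes fatty acids up at the cell surface, and the binding proteins Fabp5 and Fabp3 carry them inside the cell. Surplus fatty acids are stored as triglyceride in lipid droplets, which Plin2 and Plin3 coat and from which Pnpla2 (adipose triglyceride lipase) starts their release. In microglia, Lpl is known as a marker of the state that surrounds amyloid plaques, and lipid droplets are known to build up in microglia of aged and amyloid-bearing brain.

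The 2657 cells had a median of 19482 counts and 805 detected genes, and replicate sums ran from 1037425 to 4484427 counts. At 5000 counts per cell, CD11c-positive replicates showed a mean of 835 ± 135 (SD, n = 4) genes per cell in cortex and 870 ± 134 (SD, n = 3) in hippocampus, against 436 to 623 in the 4 CD11c-negative groups. The 8 microglial markers were all detected in every group, and their sum was lower in the CD11c-positive replicates, at 4372 to 5008 against 7608 to 9452 CPM (counts per 1000000) in CD11c-negative APP cortex and 6744 to 8320 against 13979 to 16840 CPM in hippocampus. Neuronal markers summed to 331 to 1313 CPM in WT cortex, 488 to 833 in CD11c-negative and 560 to 1007 in CD11c-positive APP cortex, against 0 to 185 in the hippocampal groups. Oligodendrocyte markers summed to 299.6 to 478 CPM in CD11c-positive against 123 to 214 in CD11c-negative APP cortex, and astrocyte markers to 402 to 1069 against 321 to 768 CPM. Border macrophage markers summed to 23.2 to 47.1 CPM and monocyte markers to 29.0 to 112 CPM in CD11c-positive hippocampus, while in CD11c-negative APP hippocampus they summed to 0 to 12.1 and 0 to 36.4 CPM. In WT cells the border macrophage markers reached 55.7 CPM in cortex and 76.4 in hippocampus. The part of these differences in the results was not tested, nor can fewer cells of a kind and less RNA per cell be told apart in a replicate's sum. The genotype tag goes against the title in 17 of 36 libraries, and the titles were used.

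Lpl (ENSMUSG00000015568) lies on GRCm38 at chr8:68880491-68907448, plus strand. It was the member seen in the largest share of CD11c-positive cells. With counts scaled per 1000000 after TMM normalisation, it reached in CD11c-positive cells 518, 773, 772 and 565 CPM in cortex replicates 1 to 4, and 825, 1113 and 610 CPM in hippocampus replicates 1-2, 2-3 and 4. In CD11c-negative APP cells the cortical values were 97.5, 102, 19.9 and 18.3 CPM and the hippocampal ones 1.07, 3.31, 14.5 and 0.818 CPM. Every CD11c-positive replicate thus lay above every CD11c-negative one in both regions.

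WT cells carried little Lpl. All 4 WT cortex replicates held 0 Lpl counts, and WT hippocampus replicates held 2.82, 0, 72.5 and 0.512 CPM. WT hippocampus replicate 3 stands alone there, and 1 of its cells held 152 of the 169 Lpl counts of the whole group. That cell also held 128 counts of P2ry12, 99 of Tmem119 and 163 of Csf1r, which mark microglia.

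In hippocampus, Lpl rose across the CD11c gate by 7.33 ± 1.39 (log2 fold change ± SE, adjusted p = 0.0116), 138-fold between the pooled groups. The adjusted p was 0.0608 without CD11c-negative hippocampus replicate 1 and 0.0632 without replicate 2, with changes of 6.94 and 7.15. Adding genes per cell as covariate gave 0.0492.

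In cortex the gate difference of Lpl was 3.45 ± 1.13, 8.55-fold between the pooled groups, with an unadjusted p of 0.00596 and an adjusted p of 0.208, so it did not pass in the fit over all 6 groups. In the 2 cortex groups alone it passed, at 3.36 (adjusted p = 0.0108), and also with the animal as replicate block, at 3.76 (adjusted p = 0.0111). It passed as well with thinned cells (adjusted p = 0.00162) and without the filter on low counts (0.0153). Leaving the cell with the most counts of each gene out of every replicate, added after the data were seen, gave 4.68 (adjusted p = 7.6e-04). That removed 53.7, 73.2, 70.5 and 11.1% of the Lpl counts of the CD11c-negative replicates, but 4.15 to 12.8% in the CD11c-positive ones. The removal thus widened the difference by construction and is no support. The gate effects of the 2 regions differed by 3.88 ± 1.56, which did not pass (adjusted p = 0.552). No member passed this interaction in edgeR or DESeq2, 1 had an unadjusted p under 0.05 (7.49% of all genes), and 0% of all genes were called by edgeR and 1.61% by DESeq2.

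**Figure D1:**
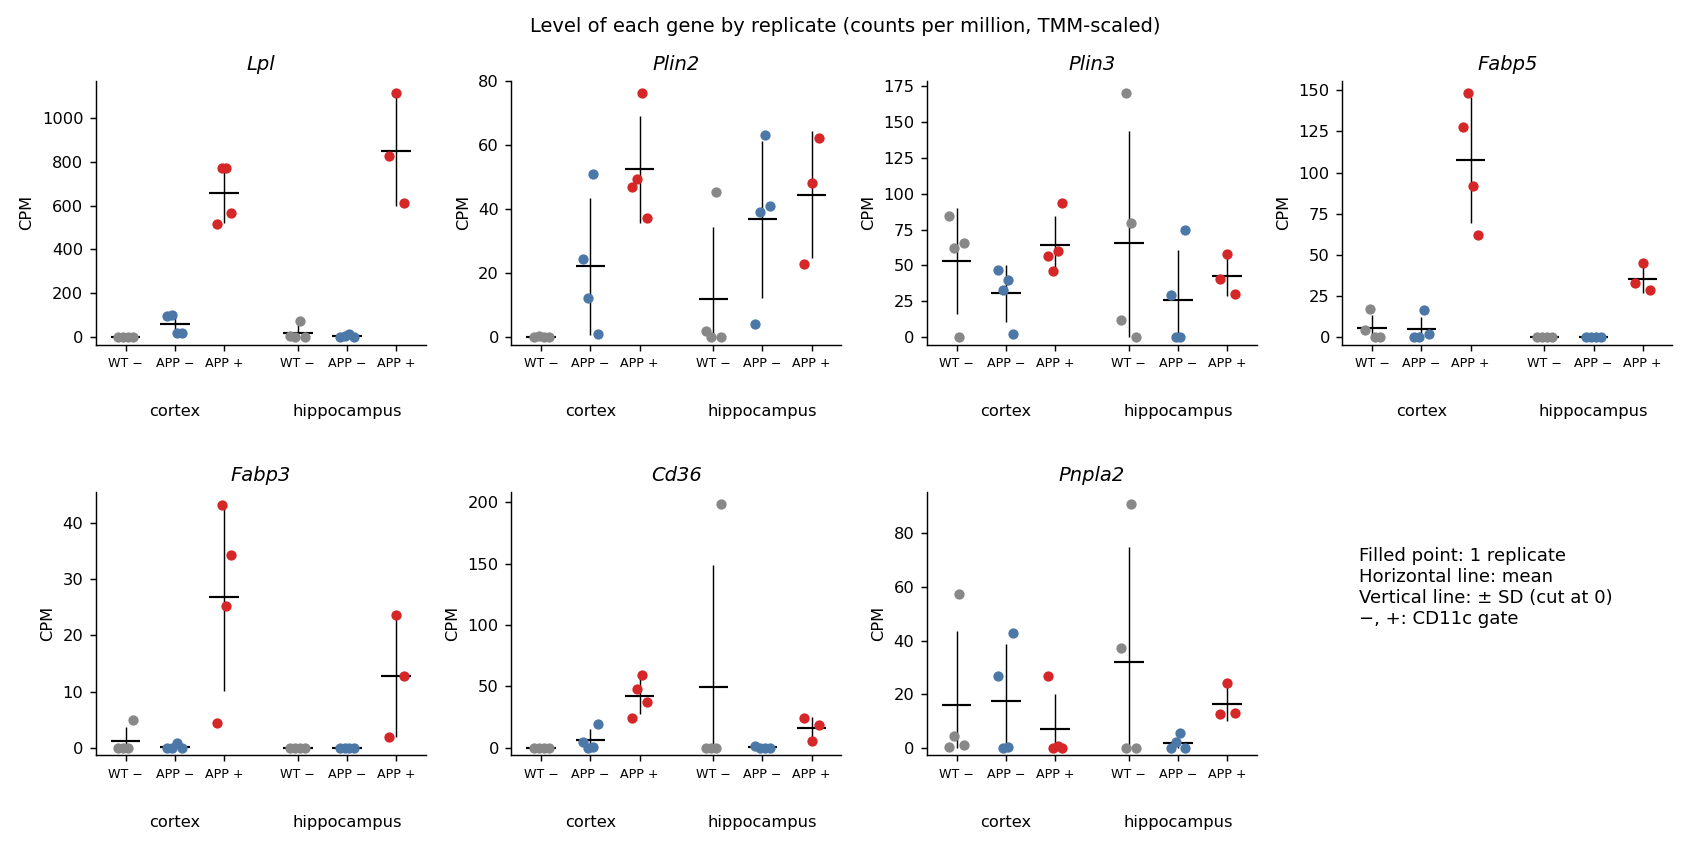
Level of each of the 7 genes in CPM (y axis, linear, a scale per panel) in each replicate (points) of the 6 groups (x axis), with the mean and SD. Lpl in CD11c-positive APP cells lay at 518 to 1113 CPM, above all other replicates. Plin3 points overlap between groups, as do those of Pnpla2 except across the hippocampal gate.

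The fatty acid binding proteins were nearly absent outside the CD11c-positive gate. Fabp5 (ENSMUSG00000027533, chr3:10012548-10016607, plus strand) reached 128, 148, 92.0 and 61.9 CPM in the CD11c-positive cortex replicates and 33.0, 45.0 and 28.4 CPM in the hippocampal ones. Its CD11c-negative APP cortex replicates held 0, 0, 16.2 and 2.04 CPM, its WT cortex replicates 4.20, 17.0, 0 and 0 CPM, and both CD11c-negative hippocampal groups held 0 counts in 4 of 4 replicates. CD11c-positive replicates lay above all CD11c-negative ones.

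The gate difference of Fabp5 was 4.55 ± 1.84 in cortex (29.8-fold between the pooled groups, adjusted p = 0.328). In hippocampus it was at least 126-fold higher against CD11c-negative APP cells (adjusted p = 0.106) and at least 114-fold higher against WT cells (adjusted p = 0.0520), with 3 counts over the group taken as the floor. Neither passed in edgeR, and both passed in DESeq2 (adjusted p = 0.00317 and 0.00147). Of the 328 Fabp5 counts of CD11c-positive hippocampus, 135 came from the only positive cell of replicate 2-3.

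Fabp3 (ENSMUSG00000028773, chr4:130308595-130315463, plus strand) held 4.44, 43.1, 25.1 and 34.3 CPM in CD11c-positive cortex and 1.97, 23.7 and 12.8 CPM in CD11c-positive hippocampus. Elsewhere 1 replicate of CD11c-negative APP cortex held 0.902 CPM, 1 replicate of WT cortex 4.87 CPM, and the other 14 replicates 0. Cortex counted 372 against 2 across the gate, a ratio of 134 with a counting interval of 36.7 to 1106 (adjusted p = 0.257). These counts came from 23 of 587 and 1 of 454 cells, and the interval, which treats them as independent, is too narrow. In hippocampus Fabp3 was at least 38.0-fold higher (adjusted p = 0.218). WT cortex replicate 4 lay above CD11c-positive cortex replicate 1, so those groups overlapped.

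Both genes have near-identical pseudogenes, so reads may be split between copies. Fabp3-ps1 matches Fabp3 at 99.3% over 402 bases and held 140 counts, of which 136 were in CD11c-positive cells. Gm6166 matches Fabp5 at 98.3% over 409 bases and held 128 counts, of which 108 were in CD11c-positive cells. Fabp3 also shares 81 bases with Zcchc17 on the other strand, and no source used here gives the counting's strand setting.

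Cd36, the fatty acid and lipoprotein receptor (ENSMUSG00000002944, chr5:17781690-17888801, minus strand), held 24.3, 47.7, 59.2 and 37.3 CPM in CD11c-positive cortex and 24.0, 5.33 and 18.3 CPM in CD11c-positive hippocampus. CD11c-negative APP cells held 4.73, 0, 0.902 and 19.4 CPM in cortex and 1.60, 0, 0 and 0 CPM in hippocampus. The gates did not overlap in either region, but the gate difference did not pass, at 2.78 ± 2.06 in cortex (adjusted p = 0.741) and 4.99 ± 2.35 in hippocampus (adjusted p = 0.447).

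WT cortex held 0 Cd36 counts. In WT hippocampus replicates 1 to 3 held 0 and replicate 4 held 199 CPM, the highest Cd36 level of all replicates. A single cell held 385 of that group's 388 counts. This cell counted 774 for Apoe, 394 for Lyz2 and 247 for Csf1r, and 0 for P2ry12, Tmem119 and Cx3cr1.

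Plin2 and Plin3 are sister coat proteins of the droplet, and their levels differed in pattern, which is why both promoters are shown. The windows run from 250 bases before to 50 after the RefSeq start site (GRCm38.p6), in gene direction. Capitals mark every match on either strand to CACGTG (an E-box read by the MiT/TFE factors), to CCAAT (the CCAAT box), to GGGCGG (a GC box) or to GAGGAA (the ETS core read by PU.1), and touching matches run together.
Plin2 chr4:86670010-86670309 minus strand: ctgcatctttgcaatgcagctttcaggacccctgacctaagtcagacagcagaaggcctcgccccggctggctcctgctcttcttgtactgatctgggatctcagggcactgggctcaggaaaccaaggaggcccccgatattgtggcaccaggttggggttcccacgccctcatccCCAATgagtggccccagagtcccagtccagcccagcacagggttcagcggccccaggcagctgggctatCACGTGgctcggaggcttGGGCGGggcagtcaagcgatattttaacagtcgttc
Plin3 chr17:56290462-56290761 minus strand: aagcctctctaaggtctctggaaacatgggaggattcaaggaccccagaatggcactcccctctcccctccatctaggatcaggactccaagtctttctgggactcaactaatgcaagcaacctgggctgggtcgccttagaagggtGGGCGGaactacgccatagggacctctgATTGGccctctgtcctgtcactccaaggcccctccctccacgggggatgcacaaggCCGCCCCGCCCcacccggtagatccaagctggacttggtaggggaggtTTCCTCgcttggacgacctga
The Plin2 window has CACGTG across its start, from base -4 to base 1 with the start as base 0, and 7.15% of all 32851 promoter windows hold these letters. It also has 1 CCAAT and 1 GC box, held by 37.4% and 35.7% of windows. The Plin3 window has 1 GAGGAA match (28.3% of windows), 1 CCAAT and 3 GC boxes, of which 2 overlap on the reverse strand. The direct repeat of the PPAR response element (DR1), searched in exact form on both strands, is in 0.0396% of windows and in none of the 5 windows of members in the table. The table had no window for Lpl and Fabp5.

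Plin2 (ENSMUSG00000028494, chr4:86648386-86670060, minus strand) was at or near 0 in WT cortex and present in both gates of APP cortex. It held 46.9, 49.5, 76.3 and 37.3 CPM in CD11c-positive cortex and 24.3, 12.2, 51.0 and 1.02 CPM in CD11c-negative APP cortex. WT cortex held 0, 0.436, 0 and 0 CPM, which is 1 count over 390 cells. All 8 APP cortex replicates lay above the 4 WT ones. However, CD11c-negative APP replicate 4 and WT replicate 2 held 1 count each, so their order rests on library size alone.

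In cortex Plin2 was higher in CD11c-positive APP cells than in WT cells, with 765 counts against 1, a ratio of 524 with a counting interval of 93.8 to 20722 (8.46 ± 1.97, adjusted p = 0.0299). The call was lost when any 1 replicate of the 8 was left out (adjusted p 0.0555 to 0.118), with the highest cells left out (0.0837), with genes per cell as covariate (0.173) and with matching genotype tags (0.733). CD11c-negative APP cortex held 242 counts, a ratio to WT of 231 with a counting interval of 41.1 to 9158 (7.22 ± 1.89, unadjusted p = 8.23e-04, adjusted p = 0.519). The 765, 242 and 1 counts came from 35 of 587, 6 of 454 and 1 of 390 cells. Both counting intervals treat the counts of 1 cell as independent and are too narrow. By cell the shares were 1.32% (0.487 to 2.85%) in CD11c-negative APP and 0.256% (0.00649 to 1.42%) in WT cortex, with overlapping intervals.

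Across the gate Plin2 differed by 1.24 ± 1.39 in cortex and 0.27 ± 1.47 in hippocampus (adjusted p = 0.906 and 1), and the replicates overlapped in both. The 95% interval in hippocampus ran from -2.83 to 3.38. Hippocampal values were 22.9, 48.3 and 62.2 CPM for CD11c-positive cells. CD11c-negative APP cells held 4.00, 39.1, 63.2 and 40.9 CPM, and WT cells 1.97, 0, 45.5 and 0 CPM, all overlapping. WT replicate 3, which held the Lpl cell, was also the highest WT replicate for Plin2.

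Plin3 (ENSMUSG00000024197, chr17:56277476-56292873, minus strand) was present in every group. It held 45.8 to 93.7 CPM in CD11c-positive cortex, 29.7 to 57.6 in CD11c-positive hippocampus, 2.04 to 47.0 and 0 to 74.4 in CD11c-negative APP cortex and hippocampus, and 0 to 84.5 and 0 to 170 in WT cortex and hippocampus. The groups overlapped, except that 3 of 4 CD11c-positive cortex replicates were above all 4 CD11c-negative APP ones. Gate differences were 1.07 ± 1.52 in cortex and 0.72 ± 1.62 in hippocampus (adjusted p = 0.951 and 1), with 95% intervals from -2.15 to 4.28 and from -2.70 to 4.15.

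Pnpla2, the lipase that opens the breakdown of stored triglyceride (ENSMUSG00000025509, chr7:141455198-141460743, plus strand), was held by few cells. CD11c-positive cortex held 26.8, 0, 0.572 and 0 CPM, and CD11c-negative APP cortex 26.8, 0, 0.451 and 42.8 CPM, a difference of -1.34 ± 2.16 (adjusted p = 0.964). In hippocampus the CD11c-positive replicates held 12.7, 24.0 and 12.8 CPM, all above the CD11c-negative APP ones at 0, 1.99, 5.58 and 0 (3.06 ± 2.38, adjusted p = 0.820). WT values spanned 0.280 to 57.5 CPM in cortex and 0 to 90.9 in hippocampus and overlapped both. The sign of the cortical difference turned in 3 alternatives, to 0.55 with thinned cells, 0.43 with genes per cell as covariate and 3.97 without the highest cells.

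**Figure D2:**
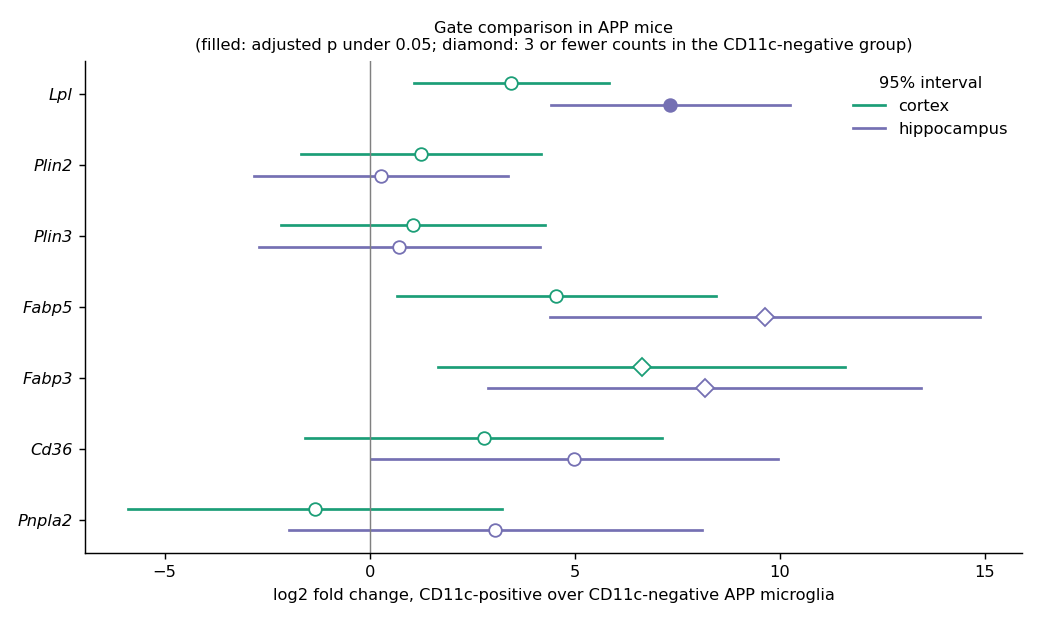
Log2 fold change of each gene from CD11c-negative to CD11c-positive APP cells (x axis) in cortex and hippocampus, with 95% intervals; a filled symbol has an adjusted p under 0.05. Only Lpl in hippocampus, at 7.33, is filled; diamonds mark CD11c-negative groups of 3 or fewer counts, where the fitted value depends on the fit's prior count.

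Across the gate, 1 of the 7 genes was called in hippocampus (Lpl), where 0.443% of all tested genes were called higher, and 0 of 7 in cortex, where 0.524% were. With RLE scaling the hippocampal split of all calls moved from 66 higher and 16 lower to 41 and 37, and the median gene shifted by -0.18. In cortex 3 of 7 had an unadjusted p under 0.05 (12.1% of all genes) and DESeq2 also called 0 (4.58% of all genes). In hippocampus DESeq2 called 2, Lpl and Fabp5 (4.11% of all genes). Replicates of the gates did not overlap for 4 members in cortex (Lpl, Fabp5, Fabp3 and Cd36) and for these and Pnpla2 in hippocampus. Over all tested genes, 8.84% and 7.94% had every CD11c-positive replicate above every CD11c-negative one. The members' median difference was 2.78 in cortex and 4.99 in hippocampus, and over all tested genes it was 0.19 and 0. Setting members with 0 counts to their bound left both medians as they were, which is no support. Cortex had no such member, and in hippocampus Fabp5 and Fabp3 stayed above the median at their bounds. The members were chosen with earlier results of these data known, so their medians are descriptions.

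Against WT cells, CD11c-positive cells showed higher Lpl in both regions. In cortex it was at least 2167-fold higher (adjusted p = 4.28e-04) and in hippocampus 5.48 ± 1.27 higher, 49.6-fold between the pooled groups (adjusted p = 0.0236). The hippocampal call was lost without CD11c-positive replicate 1-2 (adjusted p = 0.0541), without 2-3 (0.0573), without WT replicate 1 (0.0604), in the 2 groups alone (0.100) and with genes per cell as covariate (0.570). Together with Plin2, 2 of 7 members were called in cortex, where 0.618% of all genes were called higher (92 higher and 68 lower, or 69 and 95 with RLE scaling, the median gene shifting by -0.12), and 1 of 7 in hippocampus, where 1.18% were.

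Some other members stood high against WT cells without passing, and some lay lower. In cortex Cd36 was at least 137-fold higher (adjusted p = 0.148) and Fabp5 differed by 4.33 ± 1.82 (adjusted p = 0.357). In hippocampus Fabp3 was at least 34.5-fold higher (adjusted p = 0.109). Pnpla2 was lower than in WT cells in cortex, at -1.20 ± 2.15. In hippocampus Cd36, Pnpla2 and Plin3 were lower, at -1.64 ± 2.18, -0.955 ± 2.35 and -0.62 ± 1.65, and none of these passed. CD11c-positive replicates were above all WT replicates for 4 members in cortex (Lpl, Plin2, Fabp5 and Cd36; 7.93% of all genes) and 3 in hippocampus (Lpl, Fabp5 and Fabp3; 10.7% of all genes). DESeq2 called 3 members in each, Lpl, Plin2 and Cd36 in cortex (3.94% of all genes) and Lpl, Fabp5 and Fabp3 in hippocampus (9.55%). These comparisons share the CD11c-positive libraries with the gate comparisons.

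Between CD11c-negative cells of the 2 genotypes, 0 of 7 members passed in edgeR in cortex, where 0% of genes were called and 1354 of 14892 (9.09%) had an unadjusted p under 0.05, among them 3 of the 7. Lpl stood out by its counts there. It held 797 counts in APP and 0 in WT cortex, at least 254-fold more (unadjusted p = 2.7e-05, adjusted p = 0.402), with 0 of 390 WT cells positive, which, at 3 counts, allows a share of up to 0.769%. Without the filter on low counts and without the highest cells, Lpl passed (adjusted p = 2.47e-06 and 0.00193). It did not pass with thinned cells (0.0766), RLE scaling (0.358), genes per cell as covariate (0.635) or matching genotype tags (0.900). Nor did it pass in the 2 groups alone (0.836) or with any 1 replicate left out (0.206 to 0.654). DESeq2 called 3 members there, namely Lpl, Plin2 and Cd36, the last with 36 counts against 0, where it called 1.77% of all genes. Lpl and Plin2 had every APP replicate above every WT one, as had 1.16% of all genes. For Plin2 this rests on library size where APP replicate 4 and WT replicate 2 held 1 count each.

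In hippocampus the APP and WT values of Lpl overlapped, at -1.85 ± 1.11 (adjusted p = 0.474), and the sign turned to 1.94 without WT replicate 3. By edgeR 0 of 7 members passed there against 1.52% of all genes in either direction, 1 of 7 had an unadjusted p under 0.05 (15.8% of all genes), and DESeq2 called Cd36 (8.15% of all genes). The genotype difference of Lpl differed between the regions (interaction, adjusted p = 0.00549, where 1.01% of genes were called in either direction). DESeq2 called it for Lpl and Cd36 (5.87% of all genes). Mean levels behind it were 59.5 CPM in APP and 0 in WT cortex, and 4.91 CPM in APP and 19.0 CPM in WT hippocampus. The interaction did not pass with genes per cell as covariate (adjusted p = 0.0639) or with only the libraries whose tag matches the title (0.0975).

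Between regions, CD11c-positive cells held Lpl at 849 ± 252 CPM (SD, n = 3) in hippocampus and 657 ± 135 CPM (SD, n = 4) in cortex, a difference of 0.37 ± 1.10 with a 95% interval from -1.95 to 2.69 (adjusted p = 1). By edgeR 0 of 7 members passed, 0 had an unadjusted p under 0.05 (11.2% of all genes), DESeq2 called 0 (4.78%), and 0.222% of all genes were called in either direction. Fabp5 and Cd36 were the members whose cortical replicates all lay above the hippocampal ones, at 61.9 to 148 against 28.4 to 45.0 CPM for Fabp5 and 24.3 to 59.2 against 5.33 to 24.0 CPM for Cd36, as was so for 9.93% of all genes. Neither passed (adjusted p = 1 for both).

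In CD11c-negative APP cells Lpl was lower in every hippocampal replicate than in every cortical one (4.83% of all genes), at -3.51 ± 1.16 (adjusted p = 0.125). The difference passed in DESeq2 (adjusted p = 0.0380) and without the filter on low counts (0.00939). It also passed without the highest cells (0.00108), which held 25 to 100% of a hippocampal and 11.1 to 73.2% of a cortical replicate's Lpl counts. That removal widened the difference to -5.90 and is no support. In edgeR 0 of 7 members passed, against 2.29% of all genes in either direction, and 2 of 7 had an unadjusted p under 0.05 (18.6% of all genes). DESeq2 called 8.63% of all genes there. In WT cells Lpl was called higher in hippocampus (at least 59.8-fold, adjusted p = 0.0265), 1 of 7 members where 0.235% of genes were called higher. That call was lost without replicate 3 of WT hippocampus (adjusted p = 0.143), without WT cortex replicate 2 (0.0697) or 4 (0.0604), without the highest cells (0.0648), with thinned cells (0.131), with genes per cell as covariate (0.0949) and with matching genotype tags (0.224). In the WT groups alone, with or without the animal as replicate block, Lpl did not pass the filter on low counts. DESeq2 called 4 members between the WT regions, and 11.9% of all genes.

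Single cells showed how widely each gene was spread. A count of Lpl was seen in 32.5, 49.7, 52.4 and 42.7% of cells of the 4 CD11c-positive cortex replicates and in 68.0, 58.6 and 52.9% of the hippocampal ones. Pooled, that is 44.1% of 587 cells (95% exact Clopper-Pearson interval 40.1 to 48.2%) and 61.3% of 362 cells (56.1 to 66.4%). Counts may be reads rather than molecules, and the intervals cover counting error only.

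CD11c-negative APP cells held Lpl in 7.05% of 454 cells in cortex (4.87 to 9.80%) and 1.88% of 426 in hippocampus (0.814 to 3.67%), and WT hippocampus in 3.42% of 438 (1.93 to 5.59%). With every cell thinned to 5000 counts, which left out 73 shallower cells (16 and 9 in the CD11c-positive cortex and hippocampus), the shares were 38.7% and 47.3% in CD11c-positive cells, 3.41% and 1.22% in CD11c-negative APP cells, and 0% and 1.64% in WT cells. The thinned CD11c-positive replicates spanned 28.1 to 50.4% in cortex and 43.3 to 50.3% in hippocampus and overlapped.

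**Figure D3:**
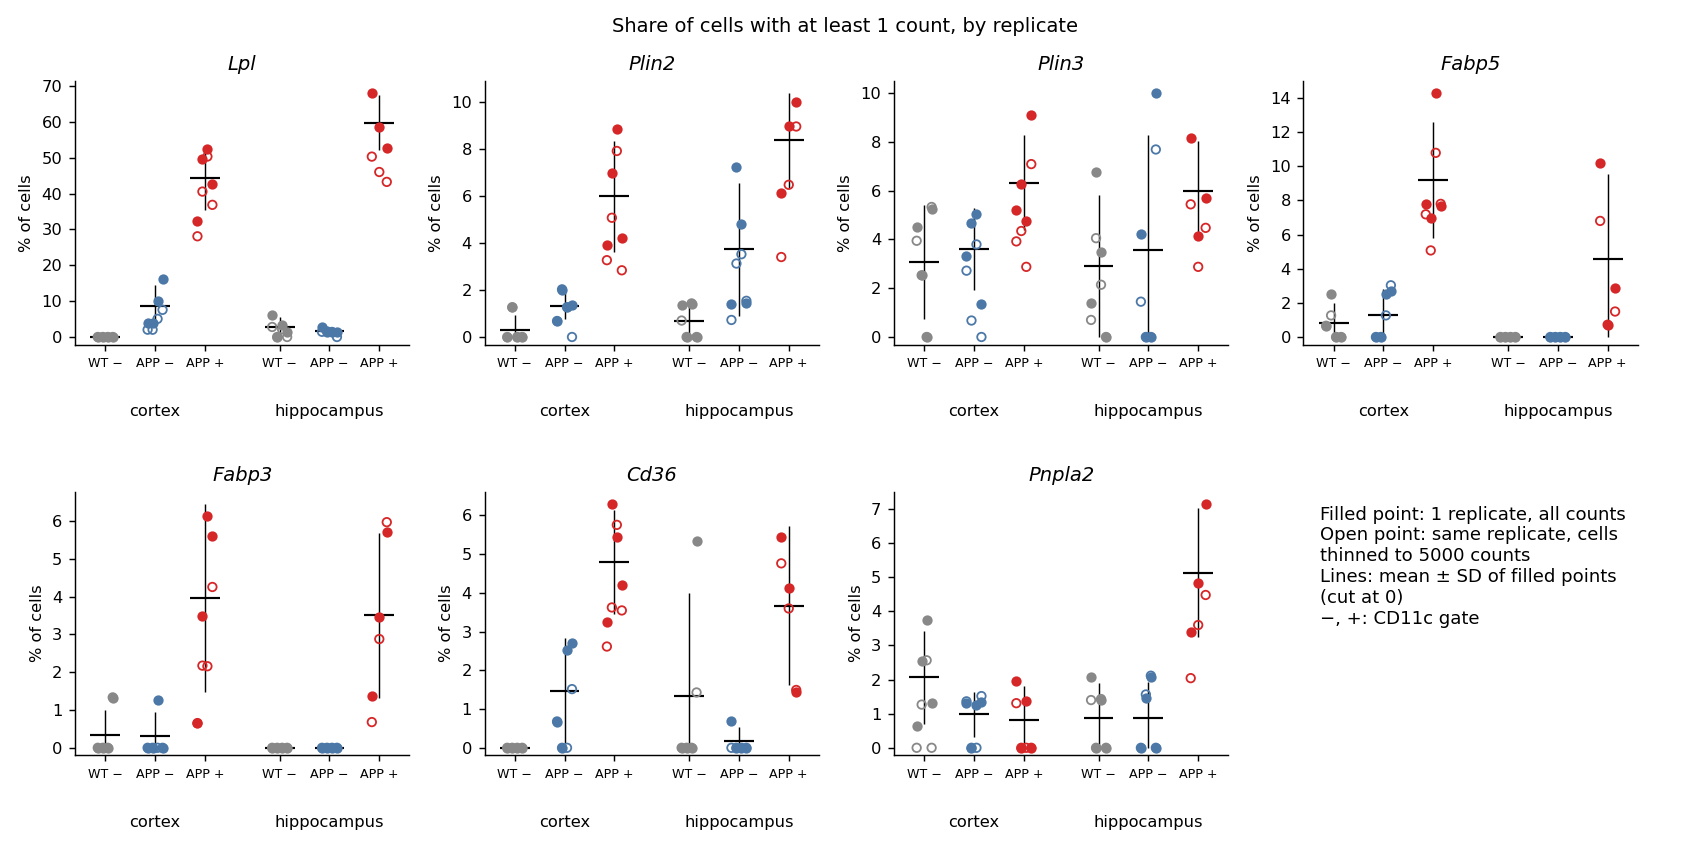
Share of cells with at least 1 count of each gene (y axis, %) in each replicate of the 6 groups; filled points use all counts and open points cells thinned to 5000 counts. Lpl was seen in 32.5 to 68.0% of CD11c-positive cells per replicate, and no other gene in over 14.3% of the cells of a replicate.

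The other members were each seen in a small share of cells even where they were highest. In CD11c-positive cortex the share was 9.20% for Fabp5, 6.30% for Plin3, 5.96% for Plin2, 4.77% for Cd36, 3.92% for Fabp3 and 0.852% for Pnpla2. In CD11c-positive hippocampus Plin2 was seen in 8.01%, Plin3 in 6.08%, Fabp5 in 4.97%, Pnpla2 in 4.70%, Cd36 in 4.14% and Fabp3 in 3.04% of cells.

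The replicate levels of these genes therefore rested on few cells. In CD11c-positive replicates the highest cell held 4.15 to 12.8% of the Lpl counts, but 16.1 to 46.7% of those of Plin2 and 12.7 to 100% of those of Fabp5. In CD11c-negative replicates with more than 3 counts it held a median of 70.5% for Lpl, 93.3% for Plin2 and 70.8% for Plin3. The common coefficient of variation between replicates was 1.37 in the fit.

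**Figure D4:**
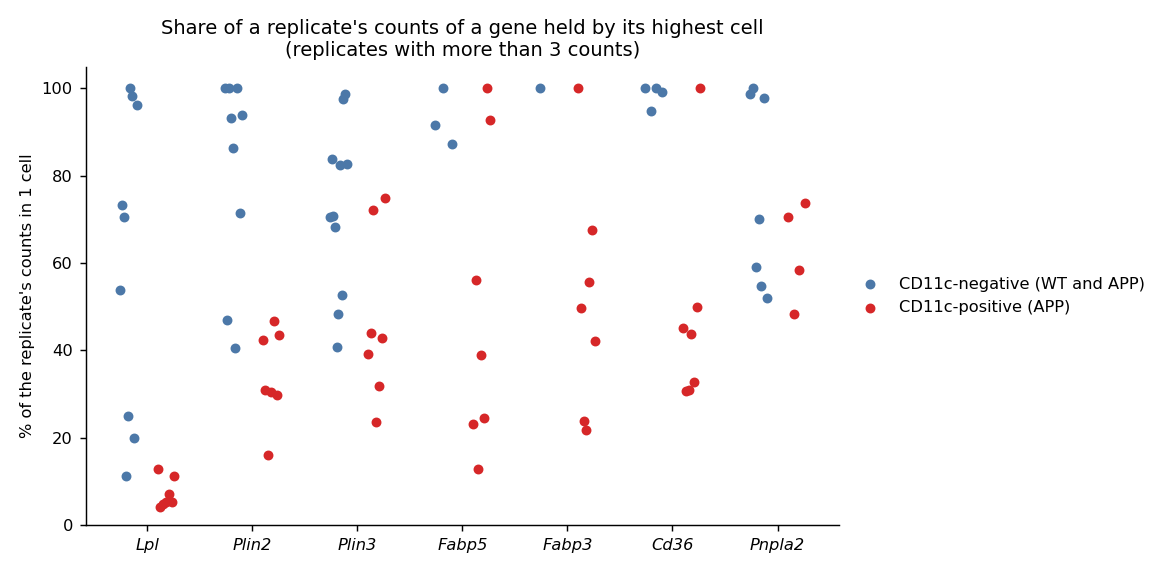
Share of a replicate's counts of a gene that its highest cell held (y axis, %), for replicates with more than 3 counts, by gene and gate. The CD11c-positive points of Lpl lie at 4.15 to 12.8%, while most CD11c-negative points of all 7 genes lie above 40%.

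Few cells held several of the genes at once. At 5000 counts, 39.6% of CD11c-positive cortex cells held 1 of the 7 genes, 9.98% held 2 and 0.876% held 3, and in CD11c-positive hippocampus these shares were 44.2%, 9.92% and 1.98%. In the CD11c-negative groups 92.0 to 95.1% of cells held none, and 1 cell of 1660 held 2. No cell held more than 3.

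**Figure D5:**
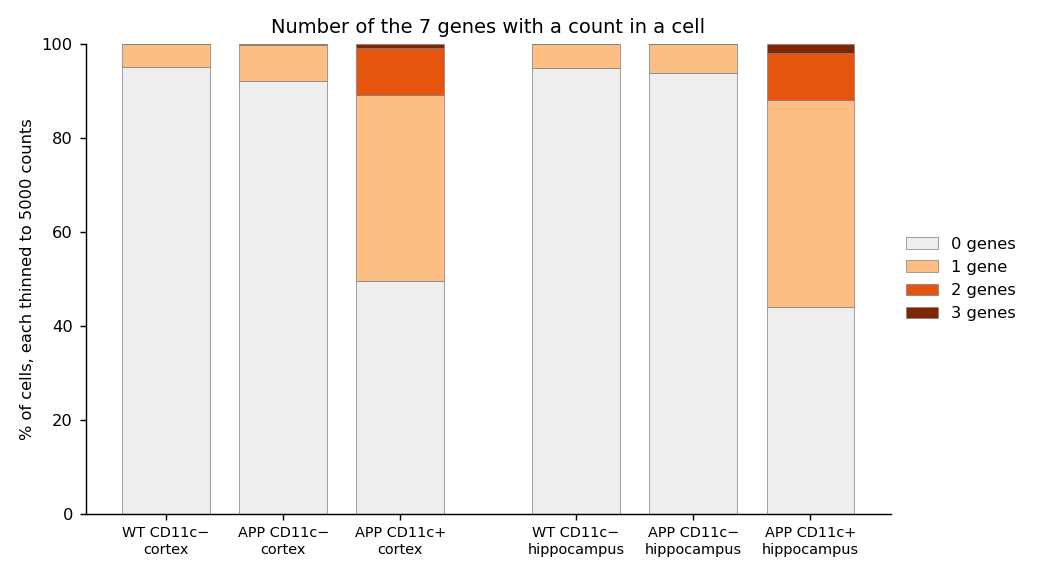
Share of cells (y axis, %, each cell thinned to 5000 counts) with a count of 0, 1, 2 or 3 of the 7 genes, by group. In CD11c-positive cells 49.6% in cortex and 43.9% in hippocampus held none, against 92.0 to 95.1% in the CD11c-negative groups.

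Among the thinned CD11c-positive cells, 388 held Lpl and 536 did not. Fabp5 was seen in 6.19% of the first and 5.97% of the second, Plin2 in 5.93% and 4.48%, Plin3 in 5.93% and 3.36%, Cd36 in 4.64% and 3.17%, and Fabp3 in 3.09% and 1.87%. The share was higher in the Lpl-positive cells of 3 of 7 replicates for Fabp5, 5 for Plin2, 5 for Plin3, 2 for Cd36 and 4 for Fabp3. Pnpla2 was seen in 1.55% and 1.31%, and was higher in 3 of 7 replicates. Cortex replicate 3 held 8 of the 18 Lpl-positive cells with Cd36, and without it the Cd36 shares were 3.14% and 3.64%. Syngr1, Igf1 and Axl were higher in the Lpl-positive cells of 7 of 7 replicates, with 83.5% against 69.6%, 27.1% against 15.7% and 25.8% against 17.4% pooled. The other genes looked at were higher in fewer, with 6 for Apoe and Cd9, 5 for Cst7, Itgax and B2m, 4 for Tmem119 and 2 for P2ry12. Syngr1, Igf1 and Axl are also among the genes closest to Lpl across these replicates (below), so the shares are descriptions. Lpl-positive cells also held more genes, with a median of 841 against 737.5 at 5000 counts, whose part in these shares was not tested.

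Few other genes of the pathway passed. Of 103 listed genes 91 were in the files and 77 were tested: control of Lpl outside the cell (7), fatty acid uptake and activation (12), droplet coat and assembly (10), triglyceride and sterol ester synthesis (14), other lipases and cofactors (8), mitochondrial oxidation (14) and transcription factors (12). Across the gate 0 of 77 passed in either direction in cortex, where 0.524% of all genes were called higher. There 9 were higher and 2 lower at an unadjusted p under 0.05 (12.1% of all genes in either direction), and DESeq2 called 2 (4.58% of all genes). In hippocampus 1 of 77 passed as higher and 0 as lower, where 66 of 14892 genes (0.443%) were called higher and 16 lower. There 8 were higher and 3 lower at an unadjusted p under 0.05 (10.9% of all genes in either direction), and DESeq2 called 2 (4.11% of all genes). The 77 genes' median gate difference was 0.31 in cortex and 0 in hippocampus, against 0.19 and 0 over all genes.

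The gene that passed across the hippocampal gate was Soat1, the enzyme that esterifies cholesterol for storage in droplets. It rose from 250 ± 77.6 CPM (SD, n = 4) in CD11c-negative to 815 ± 122 CPM (SD, n = 3) in CD11c-positive hippocampus, by 1.70 ± 0.28 (adjusted p = 0.00263), with the gates at 181 to 360 and 723 to 954 CPM. It was also higher in CD11c-positive than in WT cortex, at 824 ± 106 against 371 ± 66.1 CPM (SD, n = 4 each; 1.15 ± 0.26, adjusted p = 0.0273). This second call was lost under 12 of 19 alternatives, among them the leaving out of 3 of 4 CD11c-positive and 3 of 4 WT replicates (adjusted p 0.0649 to 0.147).

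Agpat1 and Ddhd2 were lower in CD11c-negative APP hippocampus. Agpat1, which makes phosphatidic acid on the way to triglyceride, held 279 ± 71.9 CPM there, against 633 ± 64.9 in WT hippocampus and 714 ± 60.5 in CD11c-negative APP cortex (SD, n = 4 each). It fell by 1.18 ± 0.22 against WT (adjusted p = 0.00258) and by 1.36 ± 0.22 against cortex (adjusted p = 0.00147), and the genotype difference differed between regions (-1.37 ± 0.31, adjusted p = 0.0239). With the animal as replicate block, the difference from cortex no longer passed (-1.39, adjusted p = 0.0924), nor did it with matching genotype tags (0.0797).

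The genotype call of Agpat1 was lost in the 2 groups alone (adjusted p = 0.0685), with thinned cells (0.0519), with genes per cell as covariate (0.101) and with libraries whose tag matches the title (0.214). Its interaction was lost without CD11c-negative APP cortex replicate 2 (adjusted p = 0.0564) or WT cortex replicate 3 (0.0612), with RLE scaling (0.0807), thinned cells (0.214), genes per cell as covariate (0.210) or matching tags (0.548), and without the filter on low counts (0.0981). Ddhd2, a phospholipase and triglyceride lipase, fell from 956 ± 252 CPM in WT to 370 ± 95.9 CPM in CD11c-negative APP hippocampus (SD, n = 4 each; -1.37 ± 0.25, adjusted p = 0.00229), and passed under 19 of 19 alternatives. In the other comparisons with a count of 0 for the 77 genes (CD11c-negative cortex by genotype, CD11c-positive hippocampus against WT, the regions in WT and in CD11c-positive cells, and the gate by region interaction), 4, 14, 13, 6 and 8 had an unadjusted p under 0.05, where 9.09, 17.3, 22.2, 11.2 and 7.49% of all genes did.

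Across the 23 replicates, the genes whose log2(CPM + 1) followed Lpl most closely, among 5049 genes of at least 50 CPM in their highest group, were Ifi27l2a (Pearson r = 0.95), Igf1 and Wfdc17 (0.87 each), Axl (0.87), Crlf2 and Ctnna3 (0.86 each), Cd9 and Syngr1 (0.85 each). The replicates share gate, depth and animals, so these values are descriptions. Fabp3 followed Ch25h (0.90), Ctnna3 (0.86) and Igf1 (0.84), Fabp5 followed mt-Cytb (0.93), B2m (0.92) and Rpl5-ps2 (0.90), and Cd36 followed Cd74 (0.83), Rell1 (0.81) and Cybb (0.81). Plin2 was closest to Oaz1, Ap1g1 and Snx3 (0.79 to 0.80), Plin3 to Slc9a3r1, Pdxk and Guk1 (0.73 to 0.78) and Pnpla2 to Golga7, Mau2 and Polr2l (0.59 to 0.64).

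Among the members, Fabp3 and Fabp5 were closest to each other (r = 0.81), followed by Lpl with Plin2 (0.77), Fabp5 (0.72) and Fabp3 (0.72). Cd36 stood at 0.59 to 0.61 with Lpl, Fabp5 and Fabp3. Plin3 and Pnpla2 stood apart, at -0.21 to 0.40 and -0.21 to 0.21 with the other members.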

How the data were processed

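Per the labels' protocols, single microglia were gated into plates and sequenced by a Smart-seq2-based protocol. Per the submitters' processing notes, UMI-tools 0.5.3, HISAT2 2.1.0, featureCounts 1.6.0 and the builds GRCm38 and mm10 were used. The authors deposited raw counts per gene and cell; the sources used here do not say whether reads of 1 molecule were merged. Groups came from titles. Of 2660 barcodes, 2657 had 200 or more genes and 20% or less mitochondrial counts and were used; doublets were not called. Of 83 distinct barcodes 82 occur in more than 1 library, and 0 of 630 library pairs were identical. The 36 libraries were summed into 23 replicates and tested with edgeR 4.0.16 (R 4.3.3; TMM, filterByExpr, 1 fit of 6 groups, 17 residual degrees of freedom, quasi-likelihood test, Benjamini-Hochberg adjustment over 14892 genes, threshold 0.05). The procedure was tested on simulated data. P-values measure the spread between these replicates. By the titles, equal replicate numbers name the same animal across the cortex gates and across regions. Deviations of same-numbered replicates correlated only weakly, at 0.05 to 0.08 across the gates and -0.06 to 0.05 across regions. Between genotypes they share only a number. Positions are from GENCODE vM21, near copies from BLAST 2.17.0 (at least 90% identity over 200 bases).

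The 7 members and the gene lists were chosen with earlier results of these data known. Named genes are the members and, per pathway role, up to 2 called genes of smallest p. Of the members' folds, those for both gates, Lpl in all 11 comparisons and a few more are printed, chosen after their values were seen. Alternatives were RLE scaling, no filter on low counts, DESeq2 1.42.0, all barcodes, cells thinned to 5000 counts, without cells rich in other cell types' markers, genes per cell as covariate, libraries with a matching genotype tag, 2 groups alone with and without replicate block, and each replicate left out. Leaving out each replicate's highest cell was added after the data were seen.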

Additional observations from a re-analysis of the deposited data

Results flagged for a closer look

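In groups of 4 replicates, 29 combinations of gene and group with any spread were screened for a replicate far from the other 3. Dixon's test at 95% was used, which flags about 1 in 20 groups of normally spread values by chance. That rate does not hold for these counts, as a group with 3 replicates at 0 and 1 above 0 is always flagged. Of the 29 combinations, 10 stood out. Many of them are groups in which 3 replicates hold 0 or nearly 0. In WT hippocampus these were Cd36 in replicate 4, at 199 CPM against 0, Lpl in replicate 3, at 72.5 against 0 to 2.82, and Plin2 in replicate 3, at 45.5 against 0 to 1.97. In WT cortex they were Pnpla2 in replicate 3, at 57.5 CPM against 0.280 to 4.36, Fabp3 in replicate 4, at 4.87 against 0, and Plin2 in replicate 2, at 0.436 against 0. In CD11c-negative APP cells they were Fabp5 in cortex replicate 3, at 16.2 CPM against 0 to 2.04, Fabp3 in the same replicate, at 0.902 against 0, and Cd36 in hippocampus replicate 1, at 1.60 against 0. In CD11c-positive cortex it was Pnpla2 in replicate 1, at 26.8 CPM against 0 to 0.572.

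The genotype difference of Lpl in CD11c-negative cells differed between cortex and hippocampus by a test of the interaction (edgeR, adjusted p = 0.00549).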

How the results depend on the processing

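Over 36 pairs of a named gene and a comparison, 570 of 652 alternative values kept direction and side of the threshold, 54 kept the direction but no longer passed, 20 came to pass and 8 turned sign. The sign turned for Lpl between regions in CD11c-positive cells (-0.030, thinned cells), for Lpl by genotype in hippocampus (1.94 without WT replicate 3, from -3.49 with the other replicates left out), for Plin2 at the hippocampal gate (-0.73 with genes per cell as covariate, -0.14 and -0.06 with CD11c-negative replicate 1 or CD11c-positive replicate 4 left out, up to 0.65 with others left out) and for Pnpla2 at the cortical gate (0.55, 0.43 and 3.97). The cause was not tested.

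The count of the 7 members called moved as follows, the cause not being tested. At the cortical gate 0 became 1 without a filter, with thinned cells, in the 2 groups alone, with the replicate block and without the highest cells. At the hippocampal gate 1 became 2 without a filter and in DESeq2, and 0 to 1 with a replicate left out. In CD11c-negative cortex 0 became 1 without a filter and without the highest cells, and 3 in DESeq2. In CD11c-negative hippocampus DESeq2 called 1. In CD11c-positive against WT cortex 2 became 3 in DESeq2 and in the 2 groups alone, and 1 with the replicate block, the covariate, matching tags, the highest cells left out or any replicate left out. In hippocampus 1 became 2 without a filter, 3 in DESeq2, 0 with the covariate and in the 2 groups alone, and 0 to 1 with a replicate left out. Between regions in WT cells 1 became 2 without a filter and 4 in DESeq2 (Lpl, Cd36, Plin2 and Fabp5). It became 0 with thinned cells, the covariate, matching tags, the 2 groups alone, the replicate block and the highest cells left out, and 0 to 1 with a replicate left out. In CD11c-negative APP cells 0 became 1 without a filter, in DESeq2 and without the highest cells. The genotype by region count of 1 became 2 without a filter and in DESeq2, 0 with the covariate and matching tags, and 1 to 2 with a replicate left out.

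In DESeq2 the count of the 77 pathway genes called moved to 2 at both gates (4.58 and 4.11% of all genes in cortex and hippocampus). By genotype it moved to 1 and 7 in cortex and hippocampus (1.77 and 8.15% of all genes). For CD11c-positive against WT cells it moved to 3 and 6 (3.94 and 9.55%). Between regions it moved to 7, 6 and 1 in WT, CD11c-negative and CD11c-positive APP cells (11.9, 8.63 and 4.78%). The genotype by region count moved to 5 (5.87%). At the cortical gate the count of the 77 became 3 in the 2 groups alone and 1 with the replicate block. By genotype in hippocampus 2 became 1 with the covariate, matching tags and the 2 groups alone with or without replicate block, and 2 to 3 with a replicate left out. For CD11c-positive against WT cortex 1 became 0 with RLE scaling, without a filter, with the covariate, matching tags and the replicate block, and 0 to 1 with a replicate left out. Between regions in CD11c-negative APP cells 1 became 2 with thinned cells, 0 with matching tags and the replicate block, and 1 to 3 with a replicate left out. The interaction's 1 became 0 with RLE scaling, thinned cells, the covariate, matching tags and without a filter. With a replicate left out it spanned 0 to 1 there, in CD11c-positive against WT hippocampus and between regions in WT cells, and 1 to 2 at the hippocampal gate; with thinned cells CD11c-positive against WT hippocampus gave 1.

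RLE scaling shifted the median of all genes by over 0.1 in 6 comparisons (-0.18 at the hippocampal gate, -0.12 for CD11c-positive against WT cortex, -0.12 between regions in WT cells, 0.11 by genotype in hippocampus, -0.13 and 0.19 in the interactions). The Lpl share of CD11c-positive hippocampus moved from a replicate mean of 59.8% to 46.6% with thinned cells, by more than the SD of 7.66. No paired fit was possible with CD11c-positive hippocampus, whose replicates 1-2 and 2-3 carry no single number. In the cortical gate fit of 2 groups alone, 434 genes were called without and 271 with the replicate block, and 3 of 4 replicates correlated best with their own number. Between the regions in CD11c-negative APP cells, 234 genes were called without and 0 with the block, so the calls of that comparison depend on how the pairing is treated. Between genotypes the numbers do not pair animals; in hippocampus 99 genes were called without and 69 with the block. Most cells of 5 groups hold no Lpl count, and most cells of all 6 groups hold none of each other member. Median counts per cell ran from 17997 in CD11c-negative APP hippocampus to 20316.5 in WT cortex, and the part of depth in these zeros was not tested.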

Other observations

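CD11c-negative APP cells with at least 5 Lpl counts were few, and their other genes were looked at after their values were seen. Among cells thinned to 5000 counts there were 10 such cells from 5 replicates, 8 of them from cortex, set against 839 others. Tmem119, a marker of homeostatic microglia, had a count in 2 of 10 and in 616 of 839 (in cortex, 2 of 8 and 259 of 432), and P2ry12 in 4 of 10 and 653 of 839. Apoe had a count in 2 of 10 and 188 of 839, with a mean of 4 and 1.41 counts per cell. Axl had a count in 1 of 10 and 3 of 839. Cst7, Itgax and Igf1 had none in the 10 cells, and were seen in 15, 3 and 4 of the 839. At shares that low, 10 cells are too few to tell a lower share. The neuronal gene Snap25 had a count in 2 of 10 and 15 of 839, and its part in these counts was not tested. Among CD11c-positive cells, Apoe had a count in 346 of 350 cells with at least 5 Lpl counts and in 556 of the 574 others, Cst7 in 233 and 293, and Tmem119 in 145 and 221. The CD11c-negative cell with the most Lpl, 312 counts in APP cortex replicate 2, held 195 counts of P2ry12, 2 of Apoe and 0 of Tmem119.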
